A study of Homo sapiens with 6 samples.

Results

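Interior USP39 sites of very long genes are the binding sites that lie inside nuclear protein-coding genes spanning 150000 nt or more, outside a short stretch at each end. A site was a member when its central base lay outside the first 1000 nt and the last 2000 nt of the RefSeq span, with each gene oriented by the strand that carried most of its sites. By that rule 1445 of the 34781 sites in the list were members (4.15%), in 322 of 2043 such genes. The rule used positions and gene lengths and no measured height. Genes just over the length minimum were MPRIP (150187 nt, 7 interior sites) and LRP6 (151020 nt, 1 site), and those just under it were INPP4A (149806 nt, 2 sites) and USP24 (149006 nt, 13 sites).

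USP39 belongs to the tri-snRNP, which joins the assembling spliceosome shortly before its activation. Splicing of long genes is known to run largely while the RNA is still being made, and almost all of the length of such a gene is intron. The interior of a very long gene is therefore mainly intronic sequence with short exons far apart, whereas its ends hold the promoter-proximal region and, usually, a long last exon. The iCLIP2 assay marks the places where ultraviolet light joined a protein to RNA, by sequencing the cDNA that stops there.

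The cells were HEK293T, an established human embryonic kidney line, of wild-type genotype. All libraries came from cells irradiated at 254 nm and from an immunoprecipitation with an antibody against USP39, and they differed in the piece of membrane from which RNA was recovered. Each of 3 biological replicates gave a library from a high and a library from a low membrane region, both above the position of the protein alone. A control without ultraviolet light is named in the design and was not analysed here. A single merged list was analysed, in which each site is 5 nt wide and each score is 0, so a site has neither a height nor a value per library, the depth behind it is unknown, and high and low regions were not compared. All values below are counts, shares and positions in that list, without replicate error and without tests. Wilson intervals at 95% cover counting error only, and sites of the same gene share their source. RNA abundance was not measured, so more sites in a gene cannot be told apart from more RNA of that gene.

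Bases were known at only 10 of the 1445 interior sites, those that fell inside a window of the RefSeq promoter table (GRCh38.p14, from 250 nt before to 50 nt after each listed start). The 5 of these sites in the genes with the most interior sites are shown because they are what the tables hold of the RNA at the crosslinks. Each is written on the strand of the site, 5′ to 3′, as DNA letters with up to 12 nt on either side, and the capitals mark the 5 nt of the site.
HUWE1, chrX:53683887-53683891, minus strand: tcctcgtgggatTCGTTggcggtggctga
SMARCC1, chr3:47662507-47662511, minus strand: tgcatcctccacTTTTTgagacttcccat
HMGB1, chr13:30465933-30465937, minus strand: ctggctggagagTAATGttacagagcgga
MID1, chrX:10577139-10577143, minus strand: tgccaagtcctcATTTTtttggaccaggc
PPP2R5C, chr14:101809871-101809875, plus strand: tcagtttgtcttTTTTTttttaaact
The SMARCC1 window belongs to a pseudogene on the other strand, HIGD2AP2, and the other windows belong to listed starts of the genes themselves. In this set, 3 of the 5 sites are runs of T or nearly so, while those of HUWE1 and HMGB1 are mixed.

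Across all 10 sites with known bases, 37 of 50 site bases were T (74.0%), and 7 of the 10 sites held 4 or 5 T. The flanking bases of the same sites were 27.2% T. The other 968 sites of the list that lay inside such a window had 48.8% T at the site and 24.5% T in the flanks, and 21.9% of them held 4 or 5 T. The site itself was thus richer in T than its flanks in both sets. With 10 sites, and no bases for the other members, these shares describe the windows and not the members as a whole.

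The members were spread very unevenly over genes. Of the 322 genes, 167 had 1 interior site, 46 had 2, 39 had 3 or 4 and 70 had 5 or more. Over all 2043 genes of this length, 15.8% had at least 1 interior site and 3.43% had at least 5. The 70 genes with 5 or more sites held 1053 of the 1445 sites, the 25 genes with the most held 748 (51.8%), and the 5 genes with the most held 30.1%. The median gene with an interior site therefore had 1.0 site, with an upper quartile of 4.0.

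**Figure D1:**
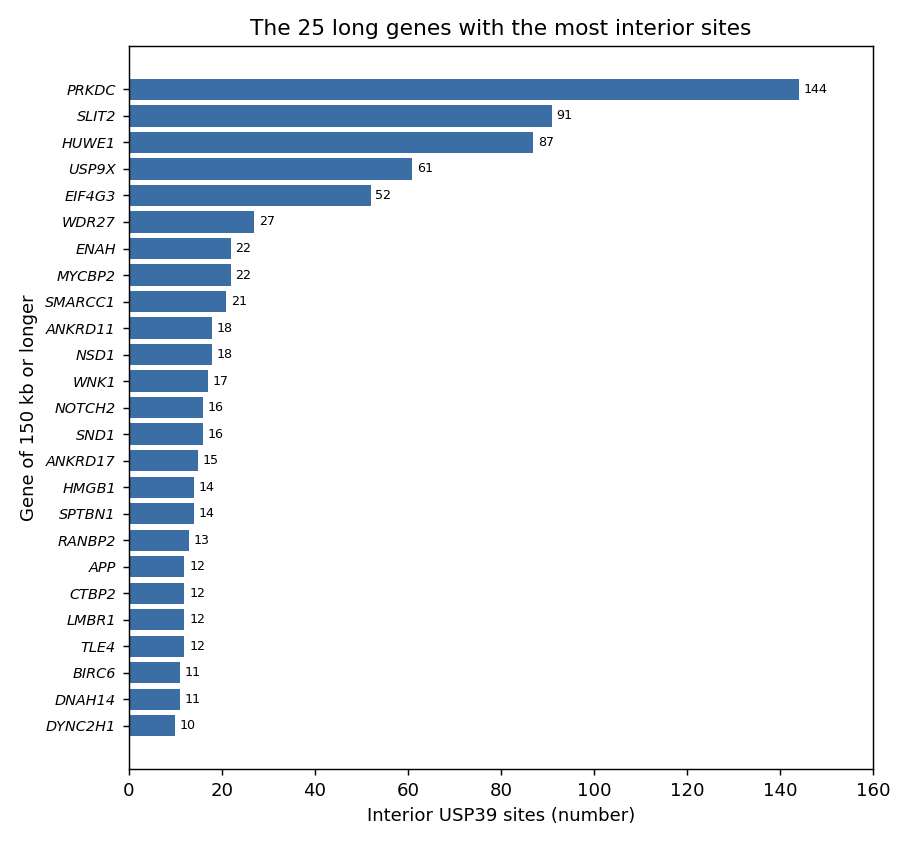
Number of interior sites (x axis) in the 25 genes of 150 kb or longer with the most (y axis, 1 bar per gene, from 1 merged list without replicates). PRKDC with 144, SLIT2 with 91, HUWE1 with 87, USP9X with 61 and EIF4G3 with 52 stand above WDR27 with 27, and DYNC2H1 closes the list with 10.

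PRKDC encodes the catalytic subunit of the DNA-dependent protein kinase, which joins broken DNA ends. Its span of 187 kb (chr8:47773111-47960136) held 144 interior sites on the minus strand, or 78.2 sites per 100 kb of interior. The sites ran through the whole gene, from 2.73 kb to 183 kb after its 5′ end, with between 7 and 25 sites in each of 10 equal bins of the interior. Its longest stretch without a site was 14.2 kb, and 47.2% of its sites had another within 50 nt.

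SLIT2 encodes a secreted guidance protein that binds ROBO receptors. Its span of 369 kb (chr4:20251905-20620561) held 91 interior sites, or 24.9 per 100 kb, and they were concentrated near the 5′ end. The first bin held 37 sites, the second 16 and the third 13, against 0 in the sixth, 12 in the eighth and 2 in the last. The densest 1000 nt of the interior of any long gene lay here, with 10 sites between 20252999 and 20253693, starting 1.097 kb after the 5′ end of the span. A further 11 sites lay just before it, in the first 1000 nt that the rule leaves out. Its longest gap was 70.8 kb.

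HUWE1 and USP9X, both on chromosome X, encode a HECT-type ubiquitin ligase and a deubiquitinating enzyme. HUWE1 (155 kb, chrX:53532096-53686719) held 87 interior sites, 57.4 per 100 kb, and 32 of them lay in the last bin. A stretch of 10000 nt between 133.834 and 143.581 kb after its 5′ end held 26 of them (29.9%). USP9X (151 kb, chrX:41085445-41236579) held 61 sites, 41.2 per 100 kb. Its first interior site lay 38.1 kb after the 5′ end, although 5 further sites lay within the first 1000 nt. USP9X had 0 sites in the first and second bins of its interior and 16 in the ninth.

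EIF4G3 encodes a scaffold protein of translation initiation. Its span of 371 kb (chr1:20806292-21176897) held 52 interior sites, 14.1 per 100 kb, of which 34 lay in the first bin and 0 in the last 2 bins. A window of 10000 nt starting 10.6 kb after the 5′ end held 20 of them (38.5%). PRKDC, HUWE1, USP9X, SLIT2 and EIF4G3 were also, in that order, the densest of the long genes with at least 5 interior sites. Their sites lay in different places, along the whole gene in PRKDC, towards the 5′ end in SLIT2 and EIF4G3, and towards the 3′ end in HUWE1 and USP9X.

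**Figure D2:**
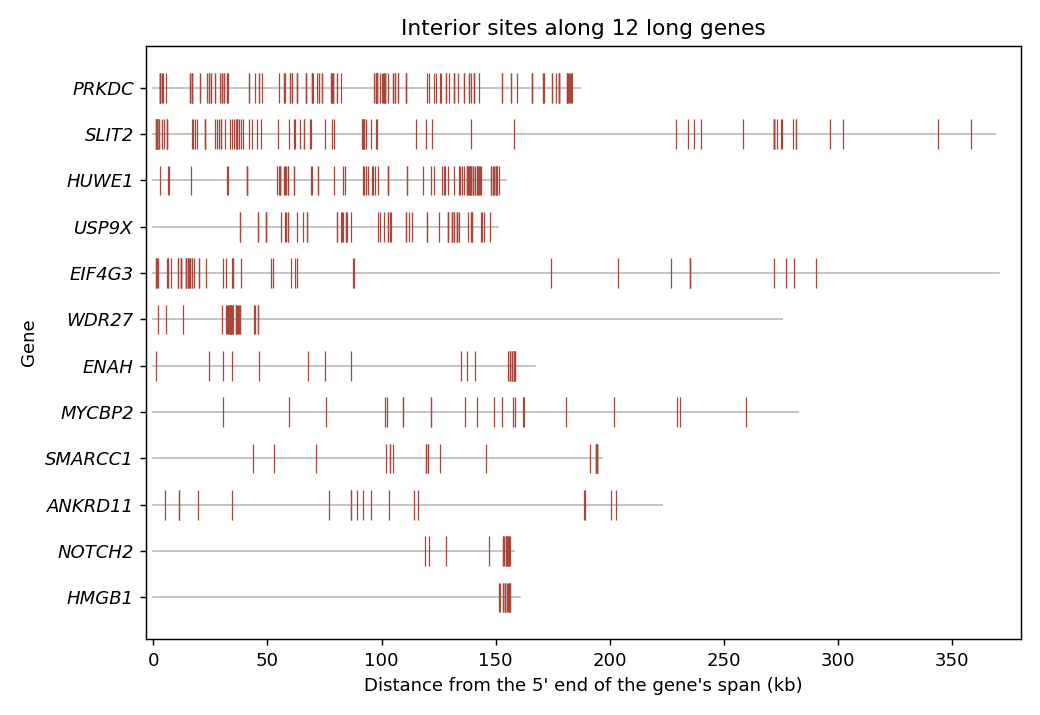
Interior sites (vertical strokes) along 12 long genes (grey lines, drawn to their full span), by distance from the 5′ end in kb. The strokes run along the whole line in PRKDC, crowd at the left in SLIT2, EIF4G3 and WDR27, and crowd at the right in HUWE1, NOTCH2 and HMGB1.

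Several genes owed their place to a short stretch of a long span. WDR27, which encodes a WD-repeat protein, had 27 interior sites within the first 45.9 kb of its 276 kb, 20 of them in 10000 nt (chr6:169664116-169672127). NOTCH2, a receptor gene, had 16 interior sites, the first 119 kb after the 5′ end, and 13 of the 16 lay within 10000 nt near the 3′ end. HMGB1 encodes an abundant chromatin protein. All 14 of its interior sites lay within 4.77 kb (chr13:30461161-30465937) of a span of 161 kb. The promoter table lists starts of HMGB1 deep inside that span, the last of them 152 kb after its 5′ end, and the first interior site lay at 151.663 kb. Of the 14 sites, 2 lay within 1000 nt after an internal start.

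RANBP2, which encodes a protein of the nuclear pore, had 13 interior sites between 16.1 and 127 kb of a span of 1123 kb, and 4 of them also lay within CCDC138, a protein-coding gene on the same strand. ROBO1, a receptor for SLIT proteins, had 10 interior sites over 1171 kb (chr3:78597239-79767998). The first of them lay at 749.027 kb after the 5′ end, close to an internal start listed at 749 kb, and the last at 1150 kb. IGF1R, the receptor for insulin-like growth factor 1, had 9, of which 7 lay between 309.184 and 312.786 kb of a span of 316 kb, after a gap of 245 kb. WNK1, a kinase gene, had 7 of its 17 interior sites between 156.283 and 156.76 kb of a span of 159 kb. In both genes these runs lay close to the last 2000 nt that the rule took off.

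In other genes the first and last interior sites were far apart and less of the total lay in a short stretch. SND1, NSD1 and ANKRD11 still had 37.5%, 27.8% and 27.8% of their interior sites within 10000 nt. MYCBP2, a giant ubiquitin ligase gene, had 22 interior sites (7.87 per 100 kb) between 30.4 and 260 kb of 282 kb, with no more than 2 in any 1000 nt. NSD1, a histone H3 lysine methyltransferase gene, had 18 over 95.9% of its length, and none had another site within 50 nt. ANKRD11 and ANKRD17, genes of ankyrin-repeat proteins, had 18 and 15, spread over 88.6% and 93.5% of their length. SND1, which encodes a Tudor-domain nuclease, had 16 over 440 kb. MSI2, an RNA-binding protein gene, had 8 over 95.5% of its 446 kb, with no more than 1 in any 10000 nt. In these genes the median distance between neighbouring sites was above 1 kb, from 1642 nt in NSD1 to 32477 nt in MSI2.

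The rest of the 25 genes with the most interior sites fell between these patterns. ENAH, an actin regulator, had 22, of which 11 lay between 155.479 and 158.686 kb of 167 kb. SMARCC1, a subunit of the BAF chromatin remodelling complex, had 21, including 7 within 1000 nt at 193.785 to 194.622 kb, and 8 more sites in its last 2000 nt. SPTBN1, a spectrin gene, had 14, and LMBR1, APP, CTBP2 and TLE4 had 12 each. BIRC6, which encodes a giant ubiquitin-conjugating enzyme, had 11 between 44.3 and 161 kb of its 262 kb. The dynein heavy chain genes DNAH14 and DYNC2H1 had 11 and 10, the last of them at 144.661 kb of 470 kb in DNAH14 and at 198.372 kb of 370 kb in DYNC2H1.

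The longest spans carried few members. CSMD1 (2060 kb), NRXN3 (1698 kb), AUTS2 (1195 kb), ASIC2 (1144 kb), WWOX (1113 kb), ASTN2 (992 kb) and SDK1 (968 kb) had 1 interior site each, and GPHN (1227 kb) had 4. With ROBO1 and RANBP2 these were the 10 longest genes with an interior site. AUTS2 had its only interior site 1.112 kb after its 5′ end. The WWOX and ASTN2 sites also lay within the span of another gene. The SDK1 site was against the strand that the promoter table lists for SDK1.

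The share of genes with a site fell over the length classes, a difference that was not tested. An interior site was found in 17.4% of 1043 genes of 150 to 250 kb, in 15.3% of 685 genes of 250 to 500 kb and in 11.4% of 315 genes of 500 kb or longer. The corresponding share was 21.2% of 4226 genes of 50 to 150 kb and 18.2% of 11828 shorter genes, with the same ends taken off. Genes with an interior site had 1 as their median at 150 kb or longer, against 2 at 50 to 150 kb and 3 below that. Interior density over all genes was 0.208 sites per 100 kb in the long genes, against 1.58 at 50 to 150 kb and 7.16 in shorter genes. Among genes that had a site, the median density was 0.592 per 100 kb in the long genes (quartiles 0.401 and 1.53), against 3.14 at 50 to 150 kb and 20.6 in shorter genes. A single site per gene gives a lower density the longer the gene, so these densities follow in part from the length itself.

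Positions along the interior were described in 10 equal bins, from 5′ to 3′, for each length class. In genes of 150 to 250 kb the last bin held 247 of the 887 sites (27.8%) and the first bin 79 (8.91%). In genes of 250 to 500 kb the order was turned, with 13.3% of the 472 sites in the last bin (interval 10.6% to 16.7%) and 25.6% in the first (21.9% to 29.8%). In genes of 500 kb or longer, 12 of the 86 sites lay in the last bin and 21 in the first. Genes of 50 to 150 kb had 24.2% in the last bin and 7.55% in the first, and genes under 50 kb had 16.9% and 8.31%. The fifth bin held 4.98% of all 1445 sites of the long genes, against 7.89% at 50 to 150 kb and 8.17% in shorter genes. Over all 1445 sites the last bin held 22.3% and the first 15.3%. With 10000 nt taken off each end of the long genes, the last bin held 13.7% and the first 17.1%.

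The 5′ excess of the longer classes differed with the genes included and with how genes were weighted. Without SLIT2, EIF4G3 and WDR27, the genes of 250 to 500 kb had 15.6% of 302 sites in the first bin and 20.2% in the last. Without RANBP2, the genes of 500 kb or longer had 12.3% of 73 sites in the first bin and 16.4% in the last. With each gene given equal weight, the first bin held 21.0% and the last 17.6% at 250 to 500 kb, and 18.6% and 7.96% at 500 kb or longer. With equal weights and the same genes left out, the first bin held 20.5% and the last 18.0% at 250 to 500 kb, and 16.5% and 8.19% at 500 kb or longer. In the 150 to 250 kb class without PRKDC, HUWE1 and USP9X the last bin held 31.6% of 595 sites. The 3′ excess of that class was therefore present without its 3 leading genes, whereas in longer genes leaving out the named genes turned the order of the ends in the share of sites and not with genes weighted equally.

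**Figure D3:**
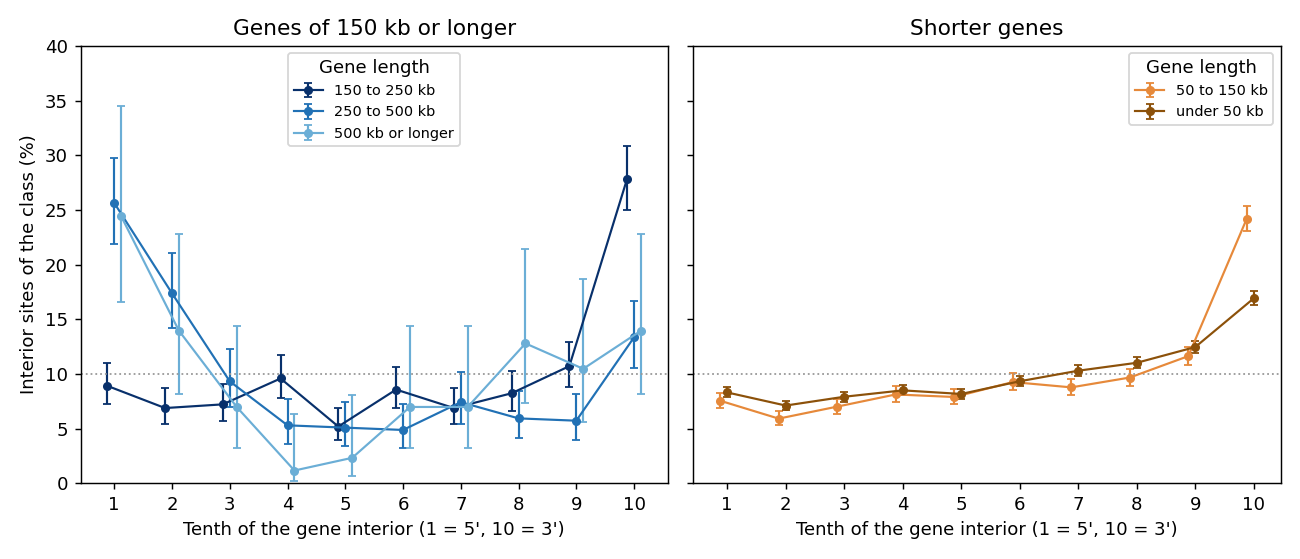
Share of interior sites (y axis, percent of the class, with 95% Wilson intervals for counting error) in each of 10 equal bins of the gene interior (x axis, 5′ to 3′), for 3 classes of long genes on the left and 2 classes of shorter genes on the right. The dotted line marks an even spread. The 150 to 250 kb class ends at 27.8% and the 250 to 500 kb class starts at 25.6%.

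The ends of the same genes were denser than their interior. In the 347 long genes with a site and an orientation, interior density was 1.37 sites per 100 kb, against 19.3 in the first 1000 nt (67 sites) and 22.3 in the last 2000 nt (155 sites). Interior density fell with distance from the 3′ end, whereas from the 5′ end it was lowest between 5 and 10 kb among the distances given here. Between 1 and 2 kb after the 5′ end it was 8.93 per 100 kb, between 2 and 5 kb 2.79 and between 5 and 10 kb 1.44. It was then higher again, with 2.45 between 10 and 20 kb, 2.00 between 20 and 40 kb and 1.78 between 40001 and 75000 nt. From the 3′ end it was 11.6 between 2 and 5 kb, 5.19 between 5 and 10 kb and 1.51 between 20 and 40 kb. Without the 5 genes with the most interior sites, these values were, in the same order, 5.26, 1.56, 0.877, 1.58, 1.33 and 1.14 from the 5′ end. From the 3′ end they were 10.6, 4.33 and 1.096. Part of the interior sites thus continue the crowding at the ends past the limits of the rule, at the 5′ end not as far as 5 to 10 kb.

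**Figure D4:**
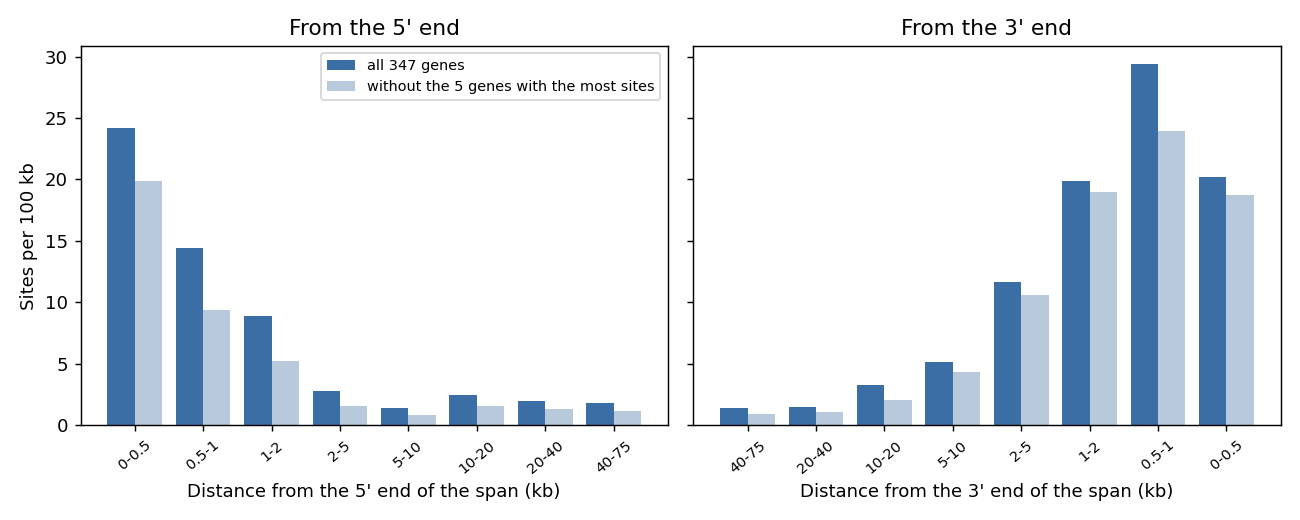
Sites per 100 kb (y axis) by distance from the 5′ end (left, kb) and from the 3′ end (right, kb) of the 347 long genes with a site, with all genes in dark bars and without the 5 genes with the most interior sites in light bars. Density is 24.2 in the first 500 nt and peaks at 29.4 between 501 and 1000 nt from the 3′ end.

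Most genes with interior sites had none at their ends. Of the 322 genes, 241 (74.8%) had interior sites only, 30 also had a site in the first 1000 nt and 62 also had a site in the last 2000 nt. A gene with 1 site in all could only count as interior only here, and 167 of the 322 genes had 1 interior site. A further 25 long genes had sites at their ends and none in the interior. HUWE1, PRKDC, MYCBP2 and SLIT2 had sites at an end as well, whereas WDR27, ENAH, ANKRD11, NSD1, ANKRD17 and HMGB1 had interior sites only.

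Distances between neighbouring interior sites were longer in long genes than in shorter ones. The median distance to the next interior site of the gene was 1884 nt over 1123 pairs, against 850 nt at 50 to 150 kb and 219 nt in shorter genes. Distances over 10000 nt made up 27.0% of the pairs in long genes, against 12.1% and 2.16%. Close pairs were still present, since 18.9% of the interior sites (273 sites, interval 17.0% to 21.0%) had another within 50 nt, against 21.4% at 50 to 150 kb and 34.1% in shorter genes. PRKDC, SLIT2, HUWE1, USP9X and EIF4G3 weighed heavily here, and without them the share in the long genes was 11.8% and the median distance 5764 nt. HMGB1 was the extreme among the leading genes, with 64.3% of its sites near another and a median distance of 87 nt.

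**Figure D5:**
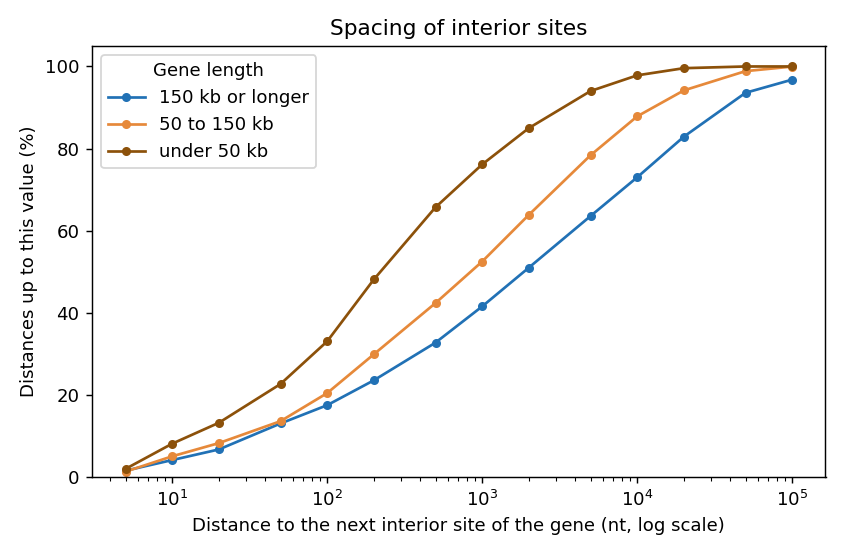
Cumulative share of distances between neighbouring interior sites of a gene (y axis, percent) against the distance (x axis, nt, log scale), for genes of 150 kb or longer and 2 classes of shorter genes. Distances up to 1000 nt make up 41.6% in long genes, against 52.5% at 50 to 150 kb and 76.2% under 50 kb.

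The strand of the sites was set against the strand in the promoter table, which the rule did not use. The table held 266 of the 322 genes. Of these, 247 (92.9%, interval 89.1% to 95.4%) carried their sites on the listed strand. All 58 genes with 5 or more interior sites and a listed strand did so. The other 19 genes had 27 interior sites in all, and at most 3 each. In 12 of the 19 genes a site also lay within another gene, as with the site of TTN in TTN-AS1 and the 2 sites of EPB41L4A in EPB41L4A-AS1. Within the genes only 5 of the 1445 sites were off the main strand. Strand was thus as listed in every gene with 5 or more sites that the table holds. The table does not list KCNQ1, a potassium channel gene known to lie on the plus strand, whose 5 interior sites were on the minus strand.

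Other genes nested in the long genes accounted for a small part of the members. In all, 125 interior sites (8.65%) also lay in the span of another gene, among them 31 lncRNA genes, 34 pseudogenes and 8 protein-coding genes. This held for 14.4% of the sites in genes with 1 interior site and for 5.51% of those in genes with 5 or more. In ANKRD11, 9 of 18 sites lay within LOC128462377. All 5 of KCNQ1 lay within KCNQ1OT1, a long noncoding RNA known to be made from the minus strand.

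Pseudogenes of snRNAs, the RNA partners of the spliceosome, were among them. Such a pseudogene held 15 interior sites in 12 genes. In 9 of these 12 genes, CDK6, BTRC and GRM5 among them, every site of the gene lay in the snRNA pseudogene. Ribosomal protein pseudogenes held 13 interior sites in 8 genes, RBFOX2 and TAOK3 among them. Reads of near-identical copies can be placed on a pseudogene, so the origin of these sites is uncertain. For the genes whose only sites lay there, the list holds no other evidence that USP39 was joined to the long transcript.

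Starts listed inside the spans bear on what counts as interior. Of the 247 genes read in the listed direction, 82 (33.2%) had a start more than 10 kb inside the span, and these held 288 of the 1066 interior sites of the 247 genes. Only 15 interior sites (1.41%) lay within 1000 nt after an internal start, 2 each in HMGB1, ROBO1 and TLE4. Over 1055 sites with a listed start before them, the median distance to the nearest such start was 86.8 kb, against 112 kb to the start of the span for the same sites. Most of these sites were thus far from the nearest listed start before them. Starts after a site were not counted, and genes that the table does not hold, PRKDC and USP9X among them, were left out.

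Gene groups were counted against the 15.8% of all long genes that had an interior site. The lists were chosen with earlier results of these data known, and their members overlap in a few genes. Of the long members of the ubiquitin list, which holds ligases and proteases, 14 of 25 (56.0%) had an interior site (interval 37.1% to 73.3%), with a median of 3.0 sites. HUWE1, USP9X, MYCBP2 and BIRC6 led it, and most of its 204 sites were in HUWE1 and USP9X. The chromatin and transcription list had 22 of 48 (45.8%, interval 32.6% to 59.7%), with a median of 2.5 sites. SMARCC1 and NSD1 led it, followed by KMT2C, a histone methyltransferase gene, and NFIA, a transcription factor gene, with 9 each. The RNA-binding list had 12 of 30 (interval 24.6% to 57.7%), with a median of 5.5 sites. EIF4G3 and SND1 led it, followed by MSI2 with 8 and QKI, a splicing regulator, with 7.

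Other groups lay between these and the share over all long genes. The cytoskeleton and motor list had 16 of 53 (30.2%, interval 19.5% to 43.5%), led by SPTBN1, DNAH14 and DYNC2H1. The kinase and signalling list had 15 of 50 (30.0%, interval 19.1% to 43.8%), led by PRKDC and IGF1R, with 8 sites in MTOR, a growth-signalling kinase. Both intervals cover counting error only, and the lists were chosen with earlier results known, so they are no test against 15.8%. BTRC in the ubiquitin list and CDK6 and TAOK3 in the kinase list counted only through sites in a pseudogene, as did MLLT10 in the chromatin list. CLASP1 and KIF5C in the cytoskeleton list counted through 1 site each, in CLASP1-AS1 and KIF5C-AS1 and against the listed strand. The cell adhesion list had 8 of 45 (17.8%, interval 9.29% to 31.3%), with 4 sites in CDH2, 2 each in ADGRL2 and CTNNA1, and 1 in CADM1. The list of genes at common fragile sites, which span some of the longest genes, had 4 of 24 (16.7%, interval 6.68% to 35.9%). Its 4 genes AUTS2, CSMD1, PTPRG and WWOX had 1 site each. The median of these 4 lists was 1.0, as over all long genes with an interior site.

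The axon guidance and tissue-restricted lists had the lowest shares of the 9, with intervals that include 15.8%. Of 28 long axon guidance genes, 2 had an interior site (7.14%, interval 1.98% to 22.6%), SLIT2 and ROBO1, a ligand and its receptor, with 101 sites between them. Of 32 long genes known mainly from muscle, sense organs or brain, 3 had one (9.38%, interval 3.24% to 24.2%), with 4 sites in all. RYR2, a calcium channel gene, had 2 sites beside each other, at 560.98 and 560.986 kb. The GRM5 site lay in an snRNA pseudogene and that of TTN in TTN-AS1. The share of long genes with an interior site thus ran from 7.14% to 56.0% over the 9 lists, and how far this follows expression in HEK293T cells was not tested.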

How the data were processed

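The authors deposited a merged BED list of binding sites whose score is 0 throughout. Per the submitters' processing notes, tools were UMI-tools 1.1.2, FastQC 0.11.9, bedtools 2.29.2, STAR 2.7.3a and SAMtools 1.10, with GRCh38.p12. The calling, filtering and merging of sites: not given in the sources used here. Depth is unknown. Coordinates count the first base as 1.

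Sites were given by central base to 59716 RefSeq genes (GRCh38.p14), with snRNA, snoRNA and other small RNA genes before protein-coding ones. Read-through and LOC symbols gave way to others, and remaining ties went by strand. MACROD1 and VTI1A, with as many sites on each strand, were left out. A listed start is one in the promoter table, whose 2767 overlapping windows on opposite strands had the same bases.

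No test was run, since 1 list has no replicates. On simulated data, 100% of 1000 sites in 100 long genes free of overlap came back in their gene and position bin. No nested genes and no sites off the strand of their gene were simulated, so errors from either were not checked. Members and lists were chosen with earlier results of these data known. Named genes are the 25 with the most interior sites, the 10 longest, the 5 densest, those with the 3 densest 1000 nt, up to 4 per list (some are not reported here), those beside the length minimum and those with sequences. KCNQ1, EPB41L4A, CDK6, BTRC, RBFOX2, TAOK3, MLLT10, CLASP1, KIF5C and HIPK2 were chosen after their values were seen. Python 3.11.15 was used with scipy 1.17.1, pandas 2.3.3, numpy 2.4.6 and matplotlib 3.10.9. The closing section gives the alternatives.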

Additional observations from a re-analysis of the deposited data

Results flagged for a closer look

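Within the spans of long protein-coding genes, 97 further sites were counted for another gene or class and so stand outside the comparisons. Of these, 39 counted for other protein-coding genes or for genes without an orientation, with 19 in ZNF664, and 38 lay where several protein-coding genes could not be told apart. Small noncoding RNA genes held 12, snoRNA genes 6 and snRNA genes 2, among them 3 each in SCARNA20, SCARNA23 and SNORA13. No control without ultraviolet light was analysed, so these sites are not set against a background.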

How the results depend on the processing

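No paired analysis was possible because the merged list has no column per library, and for the same reason no library could be left out in turn. Of 95 values under an alternative, 60 stayed within counting error or, for counts and densities, within 1.5 times, and 35 moved; the cause was not tested. With a length minimum of 100 kb there were 2848 sites in 590 genes (17.6%), 2.0 per gene and 0.335 per 100 kb, with 11.5% in the first bin and 16.8% near another. With 250 kb there were 558 sites in 141 genes (14.1%) and 0.112 per 100 kb, with 13.4% in the last bin, 25.4% in the first bin and 13.4% near another. With 10000 nt taken off each end, 13.2% of genes had a site. The last bin then held 13.7% of sites and the first 17.1%, against 22.3% and 15.3% in the main setting. Genes that overlap no other gene held 121 sites in 23 genes (11.4%), with 31.4% in the last bin, 1.65% in the first bin and 25.6% near another. With 3 or more sites required, 131 genes (6.41%) held interior sites, with a median of 5.0. Without PRKDC, 15.8% of sites were near another.

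Further alternatives were chosen after seeing the data. Orienting by the promoter table also left out the genes it does not hold, PRKDC and USP9X among them. That gave 1097 sites in 268 genes, of which 13.9% were near another. In genes that the table holds and that have no listed start over 10000 nt inside the span there were 797 sites in 179 genes (18.2%). Of these sites, 17.4% lay in the first bin and 14.6% were near another. Without the 5 genes with the most sites, 25.8% lay in the last bin, 13.2% in the first bin and 11.8% near another. Joining sites within 50 nt, placing protein-coding genes first and keeping main-strand sites moved none of the values computed; joined sites have no neighbours within 50 nt by construction. The merged list, its unknown depth and the missing exon positions limit every value.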

Other observations

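Interior sites of long genes were uneven in number over chromosomes. The number of long genes on each chromosome was not counted, so no share can be set beside these counts. Chromosome 1 held 190 of them in 41 genes, chromosome X 176 in 12 genes, chromosome 8 160 in 9 genes and chromosome 4 135 in 15 genes, while chromosome 19 held 1. PRKDC, HUWE1 and USP9X, and SLIT2 made up most of the sites on chromosomes 8, X and 4. Some shorter runs stood out among genes with fewer sites: all 6 interior sites of HIPK2, a kinase gene, lay within 7.34 kb near its 3′ end, although its span is 216 kb.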
